A study of Mus musculus with 11 samples.

Results

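The genes described here are Trp53, which encodes the transcription factor p53, and 9 of its direct targets: Mdm2, Ccng1, Sesn1, Sesn2, Trp53inp1, Zmat3, Aen, Phlda3 and Eda2r. They were taken by symbol, through RefSeq accessions, from a table of 23286 gene rows in mouse embryonic palatal mesenchyme cells (MEPMs), primary connective-tissue precursors of the secondary palate. Each of the 10 genes had exactly 1 row, and all 10 were among the 11702 rows with at least 1 FPKM in a group. FPKM counts sequenced fragments relative to transcript length and to all mapped fragments. The 10 were chosen by pathway with their group FPKM values and folds already known, so all values below are descriptions and none is a test.

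The cells came from E13.5 embryos and were kept in 10% serum, then in 0.1% serum overnight. One group of 4 libraries was left starved, 4 libraries were made after 1 h with 30 ng/mL PDGFA, and 3 after 1 h with 50 ng/mL FGF1 plus 1 µg/mL heparin. No group had heparin alone, so FGF1 and heparin cannot be told apart, and the ligand doses differed. Strain and genotype are not given in the labels, nor whether replicates were separate litters or cultures. Both ligands act through receptor tyrosine kinases, and the design asks which genes respond to each within 1 h. The table holds 1 FPKM per gene and group with a lower and an upper bound, shown here in brackets. No spread between libraries could be computed, depth is unknown, and a row counts as called only where the brackets of the groups compared lay wholly apart. In a bulk culture, fewer cells of a kind and less RNA per cell cannot be told apart.

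p53 is a sequence-specific activator that is held at low protein level by Mdm2, a ubiquitin ligase that marks it for degradation and whose gene p53 itself switches on. Stress such as DNA damage frees p53 mainly by stabilising the protein, so its mRNA level says little about its activity, and the levels of target mRNAs are the usual readout. Targets restrain the cell cycle (Ccng1), limit the growth kinases AKT and mTORC1 (Phlda3, Sesn1, Sesn2), or favour cell death (Aen, Trp53inp1, Eda2r). In development, excess p53 activity is known for harming neural crest cells, from which most palatal mesenchyme arises.

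p53 binds a response element made of a pair of decamers, and promoter letters that resemble it are shown to place the targets in sequence. RefSeq windows of 300 bases (250 before to 50 after a start, GRCm38.p6) were held for 8 of the 10 genes; Trp53inp1 and Zmat3 were not matched. They were searched for 2 adjacent p53 decamers, a pattern that reads alike on both strands, allowing at most 3 mismatches outside the invariant C and G of each decamer. A pair was found for 4 of the 8 genes, against 1.63% of 27025 genes. The closest was that of Ccng1, with 1 mismatch, a closeness reached by 0.0814% of genes, and the other 3 had 3 mismatches. Relative to the start, the pair in capitals began at -195 in Ccng1, -75 in Trp53, -173 from the downstream start of Sesn1, and -121 from the downstream start of Aen. Cdkn1a, a classical p53 target of the wider lists below, is shown for comparison, with 1 mismatch and a pair that began at -51 from its upstream start. All are written 5′ to 3′ on the gene's strand.
Ccng1, chr11:40755442-40755501, minus strand: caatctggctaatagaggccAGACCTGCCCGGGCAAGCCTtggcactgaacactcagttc
Aen, chr7:78895932-78895961, plus strand: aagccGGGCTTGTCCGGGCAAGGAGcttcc
Trp53, chr11:69580264-69580323, plus strand: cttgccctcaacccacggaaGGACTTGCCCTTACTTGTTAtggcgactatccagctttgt
Sesn1, chr10:41887246-41887305, plus strand: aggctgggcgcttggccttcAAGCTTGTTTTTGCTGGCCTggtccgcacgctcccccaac
Cdkn1a, chr17:29090908-29090967, plus strand: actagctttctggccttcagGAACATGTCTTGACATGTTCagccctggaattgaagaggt
A match is a likeness of letters in these windows and does not show binding. The windows of Mdm2, Sesn2, Phlda3 and Eda2r held no such pair. Bases outside the windows and decamers set apart from each other were not searched.

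The p53 targets stood high in starved cells, before any ligand. By FPKM, which is scaled to transcript length, Ccng1 (cyclin G1) led with 343 [248 to 438]. Phlda3, whose protein competes with AKT for membrane lipids, followed with 283 [198 to 347], above 98.7% of the rows compared, and Mdm2 had 107 [81.4 to 132], above 94.9%. The brackets of Ccng1 and Phlda3 overlapped, and both lay wholly above that of Mdm2. Trp53 itself had 69.5 [54.9 to 84.1] FPKM, above 91.2% of rows. Below it came Eda2r at 59.9, Trp53inp1 at 55.2, Sesn2 at 54.9, Aen at 52.95 and Zmat3 at 46.2 FPKM, with brackets that overlapped from each gene to the next. Only Sesn1 stood low, at 7.28 [5.45 to 9.12], above 36.02% of rows and apart from Zmat3. Thus 9 of the 10 genes lay above at least 85.9% of rows. Ccng1, Phlda3 and Mdm2 were the first 3 and Sesn1 the last in all 3 groups, with Phlda3 ahead of Ccng1 under PDGFA. With PDGFA the only neighbours in the order whose brackets lay apart were Zmat3 and Sesn1. With FGF1 they were Zmat3 and Sesn1, and Mdm2 and Trp53.

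**Figure D1:**
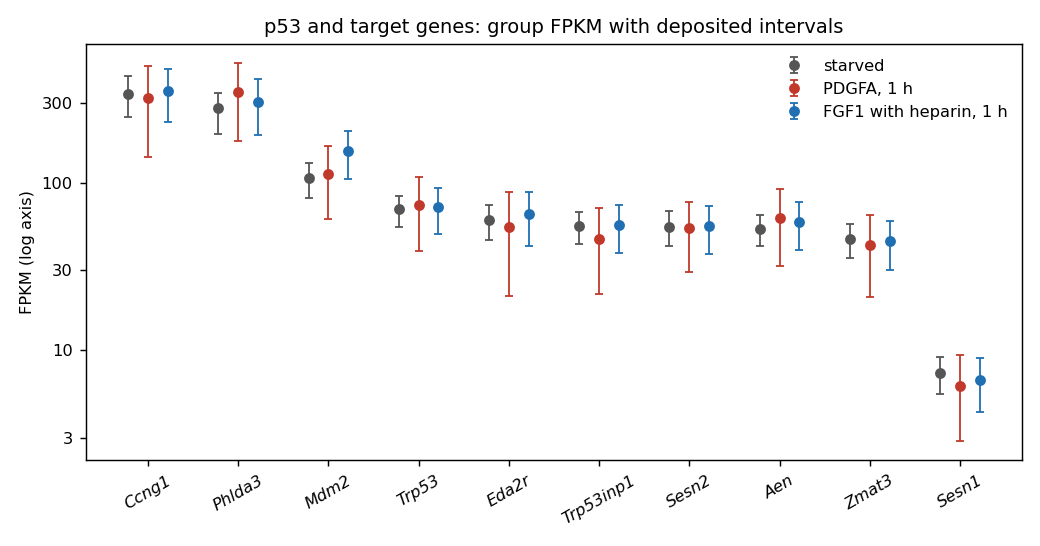
Group FPKM (log axis) of Trp53 and 9 p53 targets in starved cells (grey), after 1 h of PDGFA (red) and after 1 h of FGF1 with heparin (blue); points are the authors' group values and bars their deposited bounds. The genes spread from about 7.28 FPKM for Sesn1 to 343 for Ccng1 in starved cells, while the 3 groups of each gene overlap.

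Across the set, the brackets of each gene overlapped in all 3 comparisons. With PDGFA, 0 of 10 genes had brackets apart from starved cells, where 0.308% of all rows compared did. With FGF1 the count was 0 of 10 against 0.555% of all rows, and between the ligands 0 of 10 against 0.120%. Shares this near the background are no result about these genes. The median log2 fold (on FPKM + 0.5) of the 10 genes was -0.06 with PDGFA, 0.05 with FGF1 and 0.09 for FGF1 against PDGFA, beside -0.0029, 0.020 and 0.014 over all rows. Of the 10, 9 lay within 0.3 of zero on the log2 scale in each comparison. The exceptions were Phlda3 with PDGFA, and Mdm2 both with FGF1 and for FGF1 against PDGFA. With a z value computed from the brackets as an alternative, Mdm2 was called higher with FGF1, 1 of 10 beside 3.97% of all rows. The z value called 0 of 10 with PDGFA, beside 2.32% of rows, and 0 of 10 between the ligands, beside 2.12%.

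Trp53 showed close to the same level in all groups. It had 69.5 FPKM [54.9 to 84.1] in starved cells, 74.2 [39.1 to 109] with PDGFA and 71.8 [49.6 to 94.1] with FGF1. The starved and the FGF1 bracket both lay wholly inside that of PDGFA. The ratio to starved cells was 1.07 with PDGFA and 1.03 with FGF1, and the bounds allow ratios from 0.466 to 1.99 and from 0.590 to 1.71. Neither a ratio of 2 nor one of 0.5 lies within what the FGF1 bounds allow for Trp53 mRNA. The confidence of these bounds is not stated, so such ratios are not excluded. Of the 31-base words of Trp53 transcripts, 10.2% also occurred in other genes, chiefly the pseudogene Trp53-ps, and how the authors assigned such reads is not stated by any source at hand. The related genes Trp63 and Trp73, whose proteins bind the same element, were near 0, with 0.130 and 0.0257 FPKM in starved cells.

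Mdm2 had the largest fold of the 10. It stood at 107 FPKM [81.4 to 132] in starved cells, 114 [60.6 to 167] with PDGFA and 156 [105 to 206] with FGF1. The FGF1 value was above both other groups, but its bracket overlapped both. Its ratio to starved cells was 1.46 with FGF1, where the bounds allow 0.799 to 2.53, and 1.06 with PDGFA, where they allow 0.459 to 2.05. Its log2 fold with FGF1 was 0.54, and 1.39% of all rows had a higher one. Against PDGFA the log2 fold was 0.45, exceeded by 1.35% of rows. Mdm4, the gene of the paralog that binds and blocks p53 without degrading it, had values in the other direction, 10.2 FPKM [7.76 to 12.6] in starved cells, 7.04 [3.56 to 10.5] with PDGFA and 8.84 [5.95 to 11.7] with FGF1. These brackets overlapped too, and 13.8% of the 31-base words of Mdm4 occurred in other genes. The log2 folds of Mdm4 were -0.50 with PDGFA and -0.20 with FGF1. With the trend on base composition removed (below) they were -0.33 and -0.18. The quotient of Mdm2 to Mdm4 group values was 10.5 in starved cells, 16.1 with PDGFA and 17.6 with FGF1. That of Mdm2 to Trp53 was 1.54, 1.53 and 2.17, in the same order.

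Ccng1, an atypical cyclin that recruits a phosphatase to Mdm2, did not separate between groups. It had 343 FPKM [248 to 438] in starved cells, 323 [144 to 502] with PDGFA and 357 [232 to 481] with FGF1. The log2 folds were -0.09 with PDGFA and 0.06 with FGF1. Its paralog Ccng2 had 16.9, 16.1 and 17.5 FPKM in the same order. All brackets within each cyclin G gene overlapped.

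The sestrins are stress proteins that hold back mTORC1 when amino acids are short. Sesn2 had 54.9 FPKM [41.9 to 68.0] in starved cells, 53.5 [29.5 to 77.4] with PDGFA and 55.3 [37.6 to 72.9] with FGF1, the ratio nearest to 1 among the 10 genes for FGF1 against starved cells (1.01). Sesn1 had 7.28 [5.45 to 9.12], 6.08 [2.85 to 9.31] and 6.62 [4.28 to 8.96], with overlapping brackets and both ligand values below the starved one. Its row pools 2 RefSeq transcripts, so RNA from its 2 starts cannot be separated. Sesn3, a paralog known chiefly as a FoxO target, had 22.4, 17.75 and 19.6 FPKM, also with overlapping brackets. Sesn2 stood 7.54 times above Sesn1 in starved cells, 8.81 times with PDGFA and 8.35 times with FGF1. Of 12 genes listed for mTORC1 and other partners of sestrins and EDA2R, 0 were called in any of the 3 comparisons. The largest folds there were those of Sec13, a GATOR2 subunit, at 158.9 FPKM without ligand and 214 after PDGFA, and Keap1, the NRF2 inhibitor, with 22.0 and 27.3. Rragb, a Rag GTPase, had 2.31 and 1.81, and Sqstm1, the autophagy receptor p62, had 200.4 and 242. Every bracket of these 4 genes overlapped the starved one.

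Phlda3 had the largest fold of the 10 with PDGFA. It had 283 FPKM [198 to 347] in starved cells, 352 [179 to 524] with PDGFA and 308 [194 to 419.8] with FGF1. All 3 brackets overlapped, and the log2 folds were 0.32 with PDGFA and 0.12 with FGF1. Its transcript had the highest GC content of the 10, 62.6%, and with the trend on base composition removed (below) the PDGFA value was -0.05 and the FGF1 value -0.09. Phlda1, a paralog and an early growth factor response gene, rose from 12.3 FPKM [8.78 to 15.6] to 38.0 [17.5 to 58.4] with PDGFA and 37.0 [24.1 to 49.8] with FGF1, and was called with both ligands. Phlda3 stood 23.1 times above Phlda1 in starved cells and 9.27 and 8.32 times above it with PDGFA and FGF1. Of the 31-base words of Phlda1, compared on either strand, 30.8% also occurred in the gene Gm28592. Strand and the assignment of such reads are not stated, so the Phlda1 row is uncertain.

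Among the genes tied to cell death, Aen, a p53-induced nuclease, had 52.95 FPKM [41.9 to 64.0] in starved cells, 61.8 [31.7 to 91.9] with PDGFA and 58.4 [39.9 to 76.9] with FGF1. Both ligand values lay above the starved one with overlapping brackets, at log2 folds of 0.22 and 0.14. Trp53inp1, whose protein aids p53 phosphorylation and autophagy, had 55.2 [43.3 to 67.2], 46.3 [21.7 to 70.9] and 56.0 [38.1 to 73.9], a log2 fold of -0.25 with PDGFA and 0.02 with FGF1. Eda2r, a death-domain-free receptor of the TNF receptor family for the ectodysplasin form EDA-A2, had 59.9 [45.9 to 73.9], 54.7 [21.1 to 88.3] and 65.1 [42.2 to 88.0]. For these 3 genes every bracket overlapped every other of the same gene. The ligand gene Eda was low, at 2.28, 2.22 and 2.41 FPKM, so that the receptor mRNA stood 26.3 times above it in starved cells.

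Zmat3, a zinc-finger RNA-binding protein that acts in splicing and mRNA stability, had 46.2 FPKM [35.5 to 56.8] in starved cells, 42.6 [20.8 to 64.5] with PDGFA and 44.8 [30.0 to 59.6] with FGF1. Both ligand values lay slightly below the starved one, at log2 folds of -0.11 and -0.04. Its locus, chr3:32334794-32367438, is shared in the table with a row of 4930429B21Rik at 13.6 to 16.5 FPKM, and strand is not stated, so reads of the pair may not be told apart. Of the other 9 genes, 0 had a locus in the table that overlapped another row. By build mm10, Trp53 lay at chr11:69580359-69591873, Mdm2 at chr10:117688905-117710716 and Ccng1 at chr11:40748552-40755286.

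**Figure D2:**
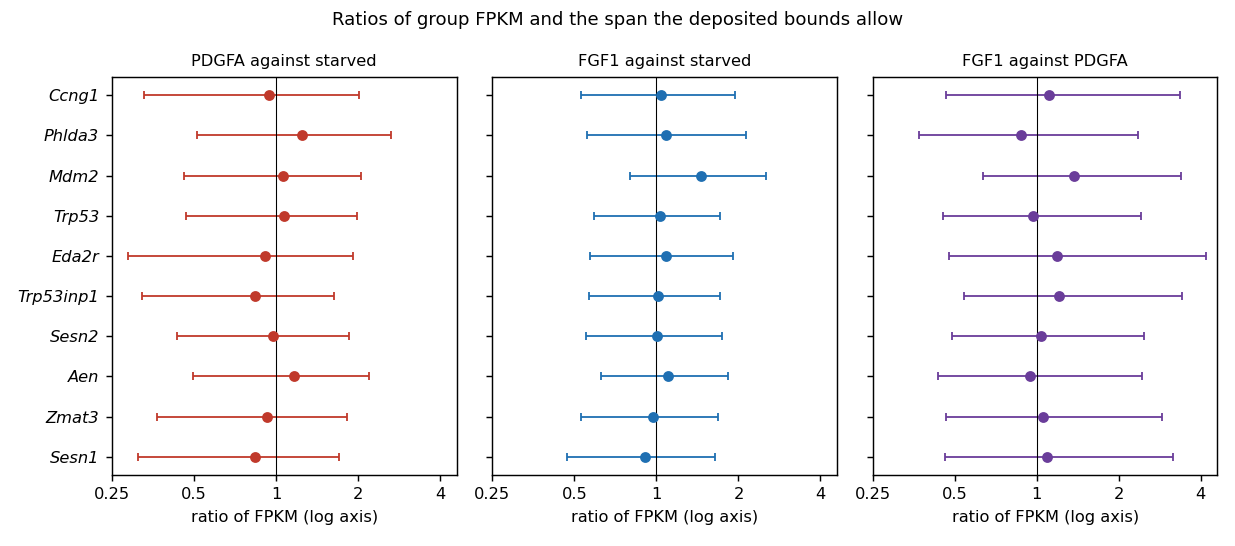
Ratio of group FPKM (log axis) for each of the 10 genes in the 3 comparisons; points are ratios of the authors' group values, and bars run from the lowest to the highest ratio that the deposited bounds allow. Every bar crosses 1, and Mdm2 has the highest point for FGF1 against starved cells (1.46) and against PDGFA (1.37).

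The bounds, at a confidence that is not stated, show how large a change could have gone unseen. With PDGFA the ratios they allow ran from 0.286 (Eda2r) to 2.65 (Phlda3) over the 10 genes, and with FGF1 from 0.469 (Sesn1) to 2.53 (Mdm2). The PDGFA brackets were the widest, with a median width to either side of 50.2% of the FPKM over the 10 genes, against 23.5% in starved and 32.6% in FGF1 cells. Over all rows compared these figures were 49.6%, 25.6% and 34.7%. For each gene, ratios within its own range are not excluded by the bounds.

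The wider p53 response was read from 41 other known targets in 4 lists, of which 40 were compared. With FGF1, 2 of these 40 were called higher (5%, against 0.538% of all rows) and 0 lower, and both are also early growth factor response genes. Plk3, a stress-responsive polo-like kinase, went from 6.08 FPKM [4.48 to 7.68] to 19.7 [13.3 to 26.1], and Btg2, an antiproliferative cofactor of mRNA decay, from 30.2 [23.2 to 37.1] to 74.7 [51.0 to 97.9]. With PDGFA they had 10.9 [5.36 to 16.5] and 57.1 [29.9 to 84.3], with brackets that overlapped those of starved cells. Of the 40, 0 had brackets apart with PDGFA. The z value called 7 of the 40 with FGF1, 2 with PDGFA and 1 between the ligands, beside 3.97%, 2.32% and 2.12% of all rows. With FGF1 these were Btg2, Plk2, Plk3, Gdf15, Sfn, Bbc3 and Pmaip1, all higher. With PDGFA they were Btg2 and Plk3, and between the ligands Plk3. Among all these calls, only those of Btg2 and Plk3 with FGF1 also had brackets apart. The z value is rescaled over all rows and holds no spread between libraries, so these counts are no test of the lists. The median log2 fold of the 40 was 0.09 with FGF1 and -0.01 with PDGFA.

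By role, the 10 arrest and growth targets all lay above the starved value after FGF1, 2 of them called, and their log2 folds had a median of 0.43. With PDGFA 9 of these 10 lay above it, with a median of 0.27 and 0 called. With the base-composition trend removed 9 of 10 lay above 0 with FGF1 and 8 with PDGFA, at medians of 0.30 and 0.07. Under upper-quartile scaling 10 and 8 lay above 0. Over all 11702 rows compared, as deposited, 6548 lay above 0 with FGF1 and 5774 with PDGFA. Cdkn1a, the cyclin-dependent kinase inhibitor p21, was the highest of the p53 genes at 461 FPKM [345 to 578] in starved cells, 540.0 [236 to 844] with PDGFA and 579 [374 to 783] with FGF1, all overlapping. Gdf15, a stress cytokine, went from 11.2 FPKM without ligand to 17.5 after FGF1. Sfn, the 14-3-3 sigma gene, went from 30.7 to 45.5, and the brackets of each gene overlapped. The z value called 5 of the 10 arrest and growth targets higher with FGF1, Gdf15 and Sfn among them, and 2 with PDGFA.

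The 11 cell death targets had a median of 0.11 with FGF1 and -0.08 with PDGFA, and 0 had brackets apart with either. The z value called 2 of the 11 higher with FGF1, Pmaip1 and Bbc3, and 0 with PDGFA. The BH3-only genes, whose proteins trigger the mitochondrial death pathway, had the highest FGF1 folds there: Pmaip1 (Noxa) had 90.3 FPKM [68.6 to 112] in starved and 131 [87.1 to 174] in FGF1 cells, and Bbc3 (Puma) 26.8 [19.6 to 33.8] and 36.7 [24.0 to 49.1], all with overlapping brackets. Apaf1 and Tnfrsf10b, of the caspase platform and a TRAIL receptor, stood at 25.03 and 52.3 FPKM without ligand and at 23.5 and 59.9 after FGF1, each with overlapping brackets. Among 11 compared DNA repair and metabolism targets the medians were 0.03 with FGF1 and -0.12 with PDGFA. There Ddb2 and Rrm2b, of nucleotide excision repair and nucleotide supply, had 1.47 and 4.94 FPKM in starved cells and 0.971 and 3.57 with PDGFA, with overlapping brackets. All lower bounds of Ddb2 were 0. Ddit4, an mTORC1 inhibitor, had 74.4 FPKM in starved cells, 62.5 with PDGFA and 78.6 with FGF1, and Dcxr, a xylulose reductase, 75.3, 94.2 and 87.5. In the 8 feedback genes, whose products mostly act back on p53, the medians were 0.06 with FGF1 and -0.01 with PDGFA. The largest fold there was that of Wrap53, a gene next to Trp53, at 5.37 FPKM without ligand and 6.67 after PDGFA. In both of these lists 0 genes were called.

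Upstream of p53, the 11 DNA damage kinases and sensors had medians of -0.15 with both PDGFA and FGF1, with 9 of 11 below the starved value in each and 0 called. Atm, the kinase that responds to double-strand breaks, had 3.38 FPKM [2.64 to 4.13] in starved cells, 2.64 [1.38 to 3.89] with PDGFA and 2.995 [2.03 to 3.96] with FGF1. Rad50, of the complex that senses such breaks, had 9.18, 7.15 and 7.33 FPKM in the same order, Atr, the replication stress kinase, 3.78, 3.001 and 3.48, and Prkdc, the DNA-PK kinase, 1.30, 0.994 and 1.09. All ligand brackets of these 4 genes overlapped the starved ones. With the trend removed the list medians were -0.08 with PDGFA and -0.06 with FGF1, and 9 and 10 of the 11 lay below 0. The 15 compared partners and regulators of p53 had medians of 0.04 with PDGFA and 0.02 with FGF1, and 0 were called. Cdkn2a, whose ARF product blocks Mdm2, had 57.9 FPKM in starved cells and 70.9 with FGF1, with overlapping brackets. Crebbp, an acetyltransferase that acts on p53, had 8.78 FPKM in starved cells, 9.59 with PDGFA and 7.99 with FGF1, and Ppp1r13b, the ASPP1 gene, 4.23, 3.86 and 3.52. Of the 7 compared paralogs and family genes 1 was called with each ligand, Phlda1. The other large folds there were those of Isg20, Mdm4 and Zmat1. Isg20, a paralog of Aen, had 1.15 FPKM without ligand and 1.88 after PDGFA. Mdm4 had 10.2 and 7.04, and Zmat1 2.06 and 1.34. For each of these genes the brackets overlapped.

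**Figure D3:**
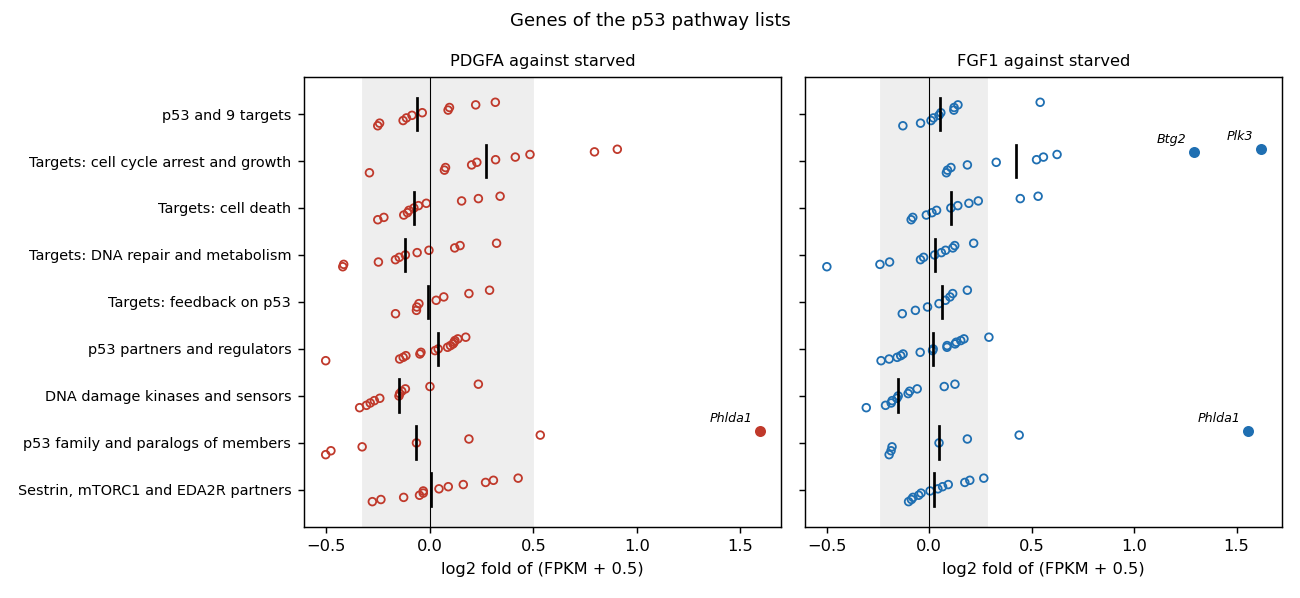
Log2 fold of (FPKM + 0.5) against starved cells for each compared gene of the p53 lists, with PDGFA (red) and FGF1 (blue); filled points were called, black ticks are list medians, and the grey band holds the central 90% of all rows compared. Most genes lie near 0; the filled points are Phlda1 with both ligands, and Btg2 and Plk3 with FGF1.

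PDGFA folds of the 10 genes ordered with the base composition of their transcripts. The GC content ran from 38.8% (Trp53inp1) to 62.6% (Phlda3), and Spearman's rho with the PDGFA log2 fold was 0.709 over the 10 genes, which share the same libraries; over all 11510 rows of at least 200 nt it was 0.61. The AT-rich transcripts Trp53inp1, Ccng1 and Eda2r lay below starved cells, and the GC-rich Aen, Trp53 and Phlda3 above, while Sesn2, at 58.7% GC, lay at -0.04. With FGF1 rho was 0.0061 over the 10 genes and 0.18 over the same rows. For FGF1 against PDGFA it was -0.85 over the 10 genes and -0.60 over those rows. After a smooth trend on GC content, length and level was removed, the sign of the PDGFA log2 fold changed for 4 genes: Trp53 went from 0.09 to -0.04, Ccng1 from -0.09 to 0.03, Phlda3 from 0.32 to -0.05 and Eda2r from -0.13 to 0.0012. Sesn2 then had the lowest value, -0.29. With FGF1 the sign changed for 5 genes, Trp53, Ccng1, Sesn2, Trp53inp1 and Phlda3, and 3 of 10 lay above 0 in place of 8; under upper-quartile scaling 4 did. Mdm2 had 0.45 with FGF1 and 0.12 with PDGFA after removal, the highest of the 10 in both comparisons.

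**Figure D4:**
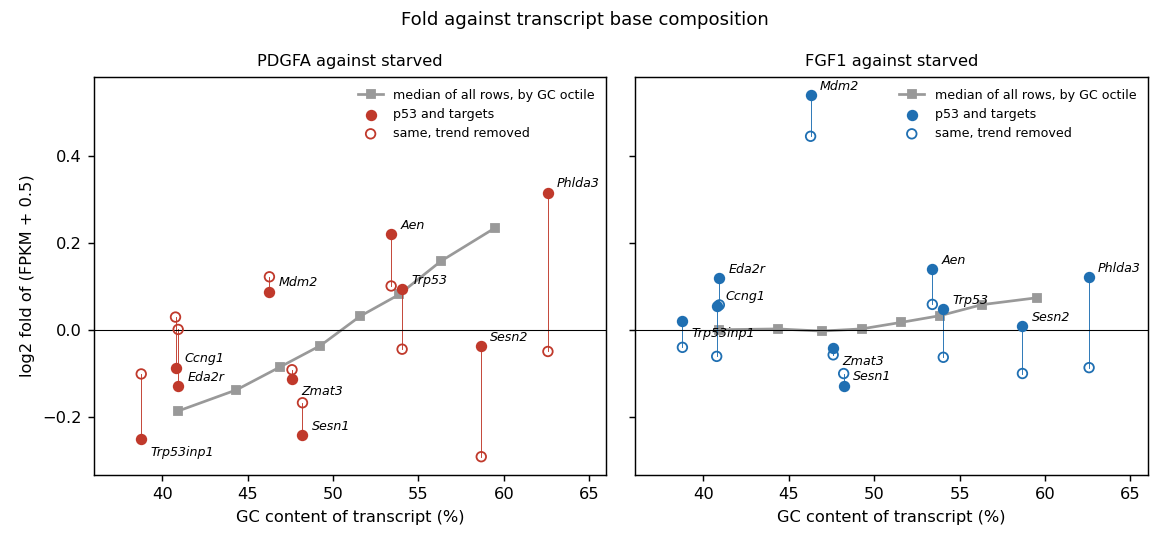
Log2 fold of (FPKM + 0.5) against starved cells by GC content of the transcript for the 10 genes, as deposited (filled) and with the trend removed (open); grey squares are medians of all rows in 8 bins of GC content. With PDGFA most filled points climb with GC like the grey line, Sesn2 (58.7% GC) lying below it, and Mdm2 stands off the line with FGF1 at 0.54.

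The cells matched their label in most markers. Prrx1, Twist1, Msx1, Col3a1 and Col1a2 had 59.8 to 2025 FPKM in starved cells, whereas the palatal factors Osr2 and Tbx22 had 3.73 and 0.0672, Pdgfra had 3.87, and Col1a1 was a failed estimate listed at 0. No epithelial or blood marker passed 0.312 FPKM in any group, among the 9 epithelial and 5 blood markers with a row, and Hbb-bs, Hba-a1 and the endothelial Tie1 were listed at 0. Of 8 skeletal muscle markers, 6 were compared and 2 (Actc1 and Acta1) were called higher with PDGFA. The summed level of the 8 was 23.5 FPKM in starved cells, 110.2 with PDGFA and 30.6 with FGF1. The part of these markers in the PDGFA values of the p53 genes was not tested.

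The flat pattern of Trp53 was common. By Euclidean distance between pairs of log2 folds against starved cells, the 5 rows most like it over the 3 groups were Maml2, Cln8, Gspt1, Adh5 and Tmem109, at distances of 0.0021 to 0.0038. Of 8305 other rows with at least 5 FPKM in every group, 1531 lay within 0.1 of Trp53, so likeness over 3 group values marks out no gene.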

How the data were processed

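Libraries were made from polyA-selected RNA, per the labels' protocols. The submitters' processing notes name CASAVA, TopHat, Cuffdiff and genome build mm10; their versions and roles, the annotation and the treatment of multiply matching reads are not stated in these notes. The authors deposited FPKM, 1 per gene and group, beside columns of lower and upper bounds, per the file headers. No source says which confidence these bounds carry. For the z value 95% was assumed, a level that drops out because z is rescaled to its own spread. Because no library had a value of its own, no test between replicates, no replicate block and no fit leaving out a library could be run.

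Accessions were matched to RefSeq genes of GRCm38.p6, the same build. Rows needed at least 1 FPKM in a group and no failed estimate (2 rows failed). A row was called when the brackets lay apart and each FPKM lay inside its own bracket. Log2 folds used FPKM + 0.5, so changes of low genes are understated. Transcript length, GC content and 31-base words came from GENCODE M21, and the trend was a robust cubic regression over 11510 rows. Call and trend steps were tried on simulated data with scatter set narrower than the brackets, so the trial does not measure false calls. The 10 genes, the 8 wider lists, the call rule and the alternatives were chosen with earlier results of these data known. Named genes were all 10, and from each wider list those called, up to 4 of the largest folds, and paralogs or partners of the 10. Cdkn1a was named outside this rule, after its values were seen. Alternatives covered pseudocount, minimum FPKM, scaling, trend and z value. Positions are 1-based. Software was matplotlib 3.10.9, statsmodels 0.14.6, scipy 1.17.1, pandas 2.3.3 and numpy 2.4.6 under Python 3.11.15.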

Additional observations from a re-analysis of the deposited data

How the results depend on the processing

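No paired analysis was possible because the table holds 1 value per group and none per library; fits leaving out a library were not run for the same reason. With either other minimum, either other scaling or the trend removed, 0 of the 10 genes were called in each comparison; the pseudocount does not enter the calls. The z value was the log2 fold divided by a standard error from the bracket widths. It was then centred on its median and rescaled to its own spread over all rows. This rule does not need brackets to lie apart, and it ranks a row against all rows rather than against spread between libraries. Adjusted over all rows at 0.05, it called 1 of the 10 with FGF1 (Mdm2) and 0 in the other comparisons. Over all rows it called 271 with PDGFA, 465 with FGF1 and 248 between ligands, in place of 36, 65 and 14. A minimum of 5 FPKM left 8 rows called between ligands, fewer rows being compared.

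Of 210 recomputed folds of the 10 genes, 15 changed sign, 10 of them with the trend removed and 5 with another scaling, and none was called. Upper-quartile scaling put the median of the 10 genes with FGF1 at -0.03 in place of 0.05 and with PDGFA at -0.14 in place of -0.06, with shifts of all rows to -0.057 and -0.072. With the trend removed these medians were -0.06 and -0.05. The width of the brackets limits what can be seen, most of all with PDGFA.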
